A study of Mus musculus with 8 samples.

Results

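The skeletal myogenic genes examined here were 10 genes that mark skeletal muscle cells and their precursors, namely Myod1, Myog, Myf5, Myf6, Actc1, Acta1, Chrna1, Tnnt1, Tnnc1 and Myh3. They were chosen by name, as the gene probes whose gene name in the scanner files was one of these symbols, which gave 12 probes for 10 genes of 27745 distinct gene names on the array. RNA came from untreated mouse embryonic fibroblasts (MEFs), cells grown out of embryos and cultured in DMEM with inactivated serum. Lats2-/- cells, which lack the Hippo pathway kinase gene Lats2, were compared with Lats2+/+ cells of the same litter, both of strain C57BL/6J. Each of 3 litters, numbered 112, 116 and 121, gave 1 Lats2-/- and 1 Lats2+/+ clone (112-C and 112-K, 116-D and 116-H, 121-E and 121-C), so that there were 6 RNA extracts. Both extracts of a litter were hybridised on each 2-colour Agilent array, with the Cy3 and Cy5 dyes swapped, which took 2, 2 and 4 arrays for litters 112, 116 and 121. The arrays of litter 121 are labelled rep1 and rep2, for the same clones. Whether these share an RNA preparation is not stated, and they are counted here as the same extracts. One question was whether transcripts of muscle cells could be detected in each culture. The other was whether their level differed between the genotypes within a litter.

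Skeletal muscle is made under the control of 4 related bHLH transcription factors. Myf5 and Myod1 commit precursors to the lineage, Myog drives their differentiation, and Myf6 acts in late differentiation and in the mature fibre. Differentiating myoblasts then switch on the contractile and synaptic genes, among them the sarcomeric actins Acta1 and Actc1, the slow troponins Tnnt1 and Tnnc1, the embryonic myosin Myh3 and the acetylcholine receptor subunit Chrna1. Several of these are not exclusive to skeletal muscle. Actc1 and Tnnc1 are also cardiac genes, and sarcomeric actins are also transcribed in some cultured mesenchymal cells together with smooth muscle actin.

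Each array carried 41174 gene probes, of which 51.6% to 57.7% were well above background in an extract by the scanner flags. Median intensities were 60.9 to 68.2 in green and 83.1 to 94.2 in red. Signals are given below as log2 intensity after normalisation and are compared only within a probe. The 4 Lats2 probes were well above background in every extract. One of them (chr14:56676512-56676571, mm8) had log2 ratios of Lats2-/- over Lats2+/+ of -1.33, -1.05 and -0.56 in litters 112, 116 and 121, and the other 3 lay between 0.80 and 1.17 in litter 121, against -0.70 to -0.18 in the other litters. The position of the deletion is not given in the sources used here, so that these probes do not settle the genotype label of litter 121. The study presents a western blot of Lats2 in these MEFs as its check of the knockout, in the direction of the labels, which was not analysed here. Some extracts stood apart from the rest. The Lats2-/- extract of litter 121 was at least 4-fold below each of the other 5 extracts at 62 of 22642 expressed probes and at least 4-fold above them at 122, and the Lats2+/+ extract of litter 116 did so at 33 and 31. The Lats2-/- extract of litter 116 did so at 7 and 31, and the other 3 extracts at 3 to 13 and at 1 to 14. Of 12 fibroblast markers, 10 were well above background in all 6 extracts, as 47.2% of all gene probes were. The Lats2-/- extract of litter 121 lacked 2 of them, with Pdgfra at 6.30 on its brightest probe against 11.14 to 13.58 in the other extracts.

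None of the 4 myogenic regulators was well above background in any of the 6 extracts, which was also true of 38.4% of all gene probes. An extract counted as well above background when the majority of its arrays carried the flag. Myod1, the factor that can convert fibroblasts to muscle, had log2 signals of 6.21, 6.16 and 6.14 in Lats2-/- cells, in the order of litters 112, 116 and 121, and 6.21, 6.16 and 6.16 in Lats2+/+ cells (chr7:46246628-46246687, mm8, 10 spots per array). These values lay just over the lowest signal that any probe well above background had in the same extracts, which was 5.98 to 6.10. The dim Myod1 signal followed the dye and not the genotype: the 4 arrays with Lats2-/- in Cy5 had log2 ratios of 0.19 to 0.25, and the 4 with Lats2-/- in Cy3 had -0.30 to -0.19. Averaged over both orientations the litter ratios were 0.01, -0.00 and -0.01. Its flag was raised in 1 Lats2+/+ and 0 Lats2-/- hybridisations of 8 each. The looser flag for a positive and significant signal counted 6 of the 10 member genes in each extract, where it covered 64.8% to 72.8% of all gene probes, and the net intensity of Myod1 (17.2 to 26.5) was above the 95th percentile of the 153 negative control spots (13.0 to 17.0) in all 6 extracts. Net intensities of an extract are averages over both dyes. In Cy5 that of Myod1 was 23.9 to 35.6 and above the percentile on each array. In Cy3 it was 7.5 to 17.5 and above the percentile only in the Lats2-/- extract of litter 112.

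Myog had signals of 6.06, 6.06 and 6.07 in Lats2-/- and 6.06, 6.06 and 6.08 in Lats2+/+ cells (chr1:136108708-136108767, mm8, 10 spots). Myf5 had 5.99, 6.00 and 5.98 in Lats2-/- and 5.98, 5.99 and 5.97 in Lats2+/+ cells (chr10:106887028-106887087, 10 spots). Neither gene differed visibly between extracts, and the net intensities of both probes were below the 95th percentile of the negative controls in all 6 extracts. Myf6, which lies close to Myf5 on the same chromosome (chr10:106897291-106897350), had signals of 6.29, 6.07 and 6.08 in Lats2-/- and 6.30, 6.14 and 6.04 in Lats2+/+ cells. It was above the negative controls in 3 extracts and had the flag in 1 hybridisation of a Lats2-/- extract. No fold between genotypes is given for these genes, since neither side was well above background. At this signal a low level of the transcripts, or a small share of myogenic cells, was not detectable, and in bulk RNA fewer cells of a type and less RNA per cell cannot be told apart.

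**Figure D1:**
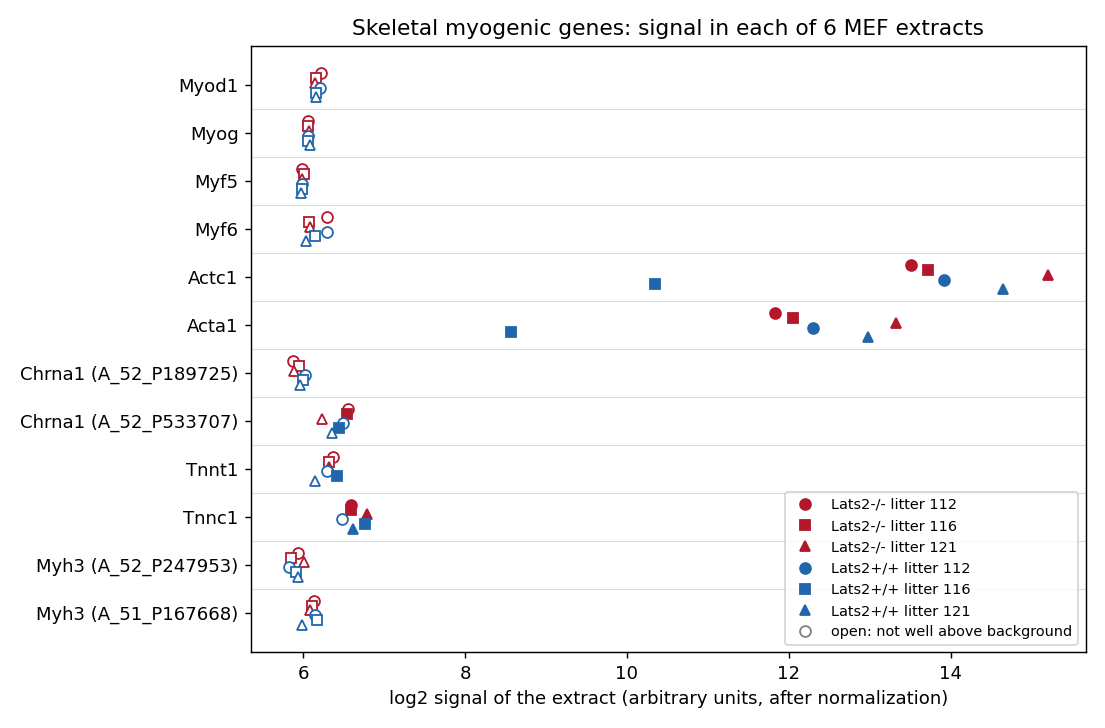
Log2 signal (x axis, arbitrary units) of the 12 probes of the 10 skeletal myogenic genes (y axis) in each of the 6 extracts, coloured by genotype and shaped by litter, with open symbols where the probe was not well above background. Acta1 and Actc1 lie between 8.56 and 15.20, with their lowest point in the Lats2+/+ extract of litter 116, and the probes above background in no extract lie between 5.82 and 6.30.

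The sarcomeric actins were the only members well above background in all 6 extracts, as 47.2% of all gene probes were. With Tnnc1 they were the 3 members expressed by the rule of the test, well above background in 2 or more of the 3 extracts of a genotype, which 55% of all gene probes met. The 250 bases before the annotated start of both actins and of Myog are shown because they differ in the CArG box, the serum response element of muscle and cytoskeletal promoters, which is set in capitals. The sequences are from RefSeq (GRCm38.p6), 5′ to 3′ on the strand of the gene, and lie at chr8:123894776-123895025 (minus strand) for Acta1, chr2:114052876-114053125 (minus strand) for Actc1 and chr1:134289754-134290003 (plus strand) for Myog.
Acta1: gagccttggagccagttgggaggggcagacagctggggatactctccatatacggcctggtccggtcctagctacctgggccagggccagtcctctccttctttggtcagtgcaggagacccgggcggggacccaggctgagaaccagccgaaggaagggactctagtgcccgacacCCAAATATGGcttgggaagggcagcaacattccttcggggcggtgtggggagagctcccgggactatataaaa
Actc1: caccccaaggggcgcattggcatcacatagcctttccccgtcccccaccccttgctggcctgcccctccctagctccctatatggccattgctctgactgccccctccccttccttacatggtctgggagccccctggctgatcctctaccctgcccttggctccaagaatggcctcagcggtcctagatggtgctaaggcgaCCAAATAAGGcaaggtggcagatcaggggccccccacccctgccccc
Myog: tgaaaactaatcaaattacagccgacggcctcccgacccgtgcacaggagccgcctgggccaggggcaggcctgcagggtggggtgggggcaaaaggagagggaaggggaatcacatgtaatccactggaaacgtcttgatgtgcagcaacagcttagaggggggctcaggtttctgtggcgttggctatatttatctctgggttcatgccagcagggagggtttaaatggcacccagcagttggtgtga
Of the 8 members with a promoter in the table, Acta1 and Actc1 held a CArG box, 73 and 47 bases before the start, and the other 6 had no match in this window. On either strand, 1.47% of 32851 promoters of the same length held one. The E-box CANNTG, whose letters read the same on both strands and to which the bHLH regulators bind, occurred in 6 of the 8, against 66.2% of all promoters. Acta1 held 2 E-boxes, Myog 2 and Actc1 0. The smooth muscle actin gene Acta2, which is not a member, held 0 CArG boxes and 3 E-boxes in the same window. A match is a description of the sequence and not a measured site.

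Acta1, the alpha actin of adult skeletal muscle, had log2 signals of 11.83, 12.05 and 13.33 in Lats2-/- cells (chr8:126778387-126778446, mm8). In the Lats2+/+ extracts it had 12.30, 8.56 and 12.98. The Lats2+/+ extract of litter 116 was the low one, 9.60-fold below the lowest of the other 5, and the genotypes overlapped. Actc1, the cardiac alpha actin that is also made in embryonic skeletal muscle, had 13.51, 13.72 and 15.20 in Lats2-/- and 13.92, 10.34 and 14.65 in Lats2+/+ cells (chr2:113739716-113740639, a mapped span of 924 bases). The order of the extracts was the same for both genes, from the Lats2+/+ extract of litter 116 at the bottom to the Lats2-/- extract of litter 121 at the top, and Actc1 in the former was 8.98-fold below the lowest of the other 5. Both were among the 0.146% of expressed probes with that extract at least 4-fold below each of the others.

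Between genotypes, the log2 ratio of Acta1 was -0.47, 3.48 and 0.35 in litters 112, 116 and 121, a mean of 1.12 ± 2.09 (SD, n = 3). That of Actc1 was -0.41, 3.37 and 0.55, a mean of 1.17 ± 1.97. The arrays of a litter, which repeat the same clones, were close: those of litter 116 gave 3.53 and 3.43 for Acta1 and 3.47 and 3.28 for Actc1. In litter 116 both genes were among the 0.349% of expressed probes whose Lats2-/- signal was 8-fold or more above the other. Neither passed limma's moderated test of the 3 litter ratios (adjusted p = 0.802 for Acta1, 95% interval -1.36 to 3.60, and 0.787 for Actc1, -1.16 to 3.51). The same test called 0% of the 22642 expressed probes at an adjusted p under 0.05, and 6.84% of them had an unadjusted p under 0.05, none of which were member probes. The methods' size of change, at least 2-fold with p under 0.05, was met by 0.835% of probes and by 0 members, and a change of 2-fold or more in 1 direction in each litter by 0.243% of probes and by 0 members. With each array as an observation, dye as a term and litter as a random block, Actc1 met the former (mean 1.17, limma adjusted p = 0.395), in a fit that counts repeat arrays of the same clones. Without litter 116 the mean was -0.06 for Acta1 and 0.07 for Actc1, so that both means rested on that litter. On slide 1, which held litters 112 and 116, the means were 1.505 and 1.482. Slide 2 held litter 121 alone, at 0.35 and 0.55.

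**Figure D2:**
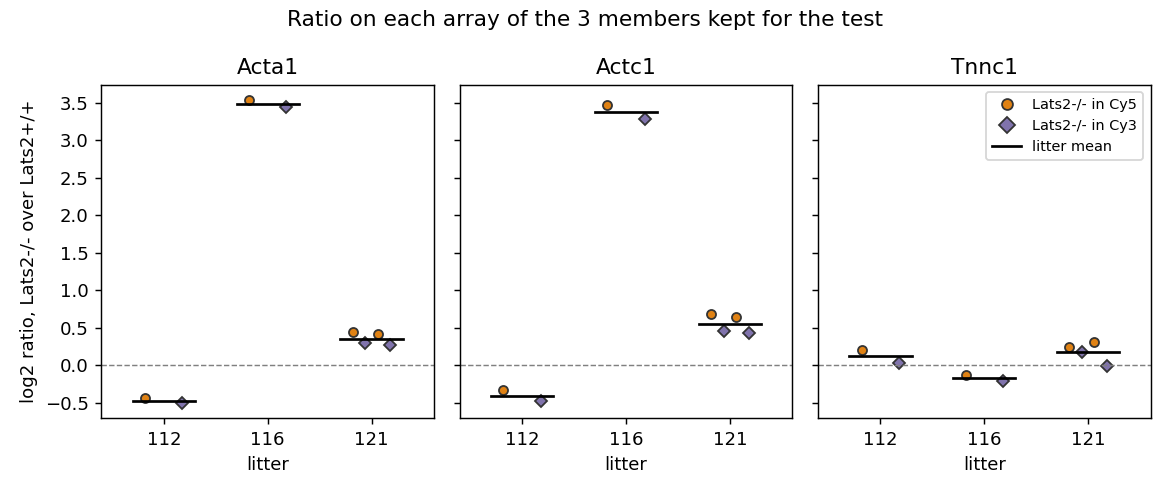
Log2 ratio of Lats2-/- over Lats2+/+ (y axis) for the 3 member genes that were expressed, with 1 point per array by dye orientation and a bar at the mean of each litter (x axis). The litter means of Acta1 and Actc1 are 3.48 and 3.37 in litter 116 and between -0.47 and 0.55 in the others, and those of Tnnc1 lie between -0.17 and 0.18.

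The signals of Acta1 and Actc1 over the 6 extracts had a Pearson correlation of 0.999 with each other, given as a description with no test, since 1 low extract carries most of their range. Among 22642 expressed probes, the one closest to Acta1 was a probe of Acta2, the smooth muscle alpha actin (r = 0.999), followed by Actc1 itself, Exoc5, Prss23 and Garre1. For Actc1 the 5 closest were Acta1, Acta2, Garre1, Ddost and Exoc5. That Acta2 probe had ratios of -0.30, 4.09 and 0.27 in litters 112, 116 and 121, and its signal was 8.42 in the Lats2+/+ extract of litter 116 against 12.34 to 14.01 elsewhere. The other Acta2 probes detected in all 6 extracts had smaller ratios in litter 116, of 1.07 to 3.16. Prss23, a serine protease, had -0.71, 4.15 and 0.14. Exoc5 had ratios of -0.11, 0.39 and 0.05. Actins are close in sequence, and the part of cross-hybridisation between actin transcripts in these values was not tested.

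Most smooth muscle markers shared the low value of the 2 actins in the Lats2+/+ extract of litter 116. All 10 genes of that list were well above background in at least 1 extract and 7 in all 6, as 47.2% of all gene probes were. Its 12 probes that were well above background in all 6 extracts are described here, since the choice of these does not depend on 1 genotype. All 12 were higher in Lats2-/- than in Lats2+/+ cells of litter 116, where 50% of the 19449 probes detected in all 6 extracts were, and 10 had their lowest signal in the Lats2+/+ extract of that litter (83.3%, against 19.6%). Their median ratio was -0.34, 2.46 and 0.41 in litters 112, 116 and 121. Summed over the 12 probes, the linear signal was 35450 in the Lats2+/+ extract of litter 116 and 183200 to 402100 in the other 5. The sum is weighted to its brightest probes, of Acta2 and Tagln, whose log2 signals reached 17.20 and 16.65. Tagln, an actin-binding protein of smooth muscle, had signals of 15.37, 16.36 and 16.65 in Lats2-/- and 15.62, 12.26 and 16.53 in Lats2+/+ cells. Cald1, which encodes caldesmon, had ratios of -0.46, 2.04 and 0.77. Myh11 and Myocd of the same list were outside the 12 probes and near background. In litter 116 Myh11 had 6.46 in Lats2-/- and 6.38 in Lats2+/+ cells, a ratio of 0.07. Myocd was not well above background in either extract of that litter. Fibroblast markers were also shifted in that litter, with a median of 2.05 over their 19 probes of the same kind against 0.13 and -0.72 in litters 112 and 121. Tagln, Cald1, Myh11 and Myocd were named after their values were seen, and the part of the smooth muscle genes in the actin result was not tested.

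**Figure D3:**
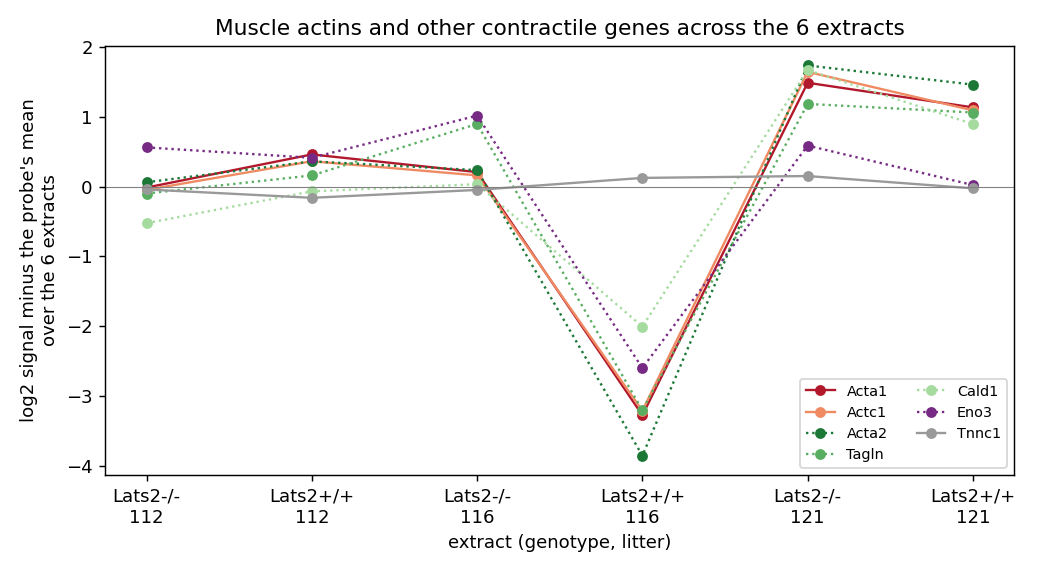
Log2 signal minus the probe's mean over the 6 extracts (y axis) in each extract (x axis) for Acta1, Actc1, Acta2, Tagln, Cald1, Eno3 and Tnnc1, with 1 line per probe. The Acta2 probe is the one closest to Acta1. The lines of the actins, Tagln, Cald1 and Eno3 share a low point in the Lats2+/+ extract of litter 116, and the Tnnc1 line stays within a range of 0.31.

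The troponins were at the edge of detection. Tnnc1, troponin C of slow and cardiac muscle, had signals of 6.59, 6.59 and 6.79 in Lats2-/- and 6.47, 6.76 and 6.61 in Lats2+/+ cells (chr14:30039183-30039599, mm8). It was well above background in each extract but the Lats2+/+ extract of litter 112. The groups overlapped, and the litter ratios of 0.12, -0.17 and 0.18 gave a mean of 0.04 ± 0.19 (SD, n = 3; limma adjusted p = 0.956, 95% interval -0.30 to 0.39). Unlike the actins, Tnnc1 was not low in the Lats2+/+ extract of litter 116, where its 6.76 was the second highest of the 6 values. Tnnt1, troponin T of slow muscle, had 6.36, 6.31 and 6.32 in Lats2-/- and 6.30, 6.41 and 6.14 in Lats2+/+ cells (chr7:4111571-4111630). It passed the flag in litter 116 for Lats2+/+ and in litter 121 for Lats2-/- cells. The arrays behind those litters differed in sign, with log2 ratios of -0.25 and 0.05 in litter 116 and -0.07, 0.37, 0.04 and 0.35 in litter 121, so that no fold is given.

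Chrna1, the alpha subunit of the muscle acetylcholine receptor, had 2 probes that differed in detection. That at chr2:73366894-73366953 had signals of 6.55, 6.53 and 6.23 in Lats2-/- and 6.49, 6.44 and 6.35 in Lats2+/+ cells, and was well above background in both extracts of litter 116 and in no other. That at chr2:73364172-73364231 had 5.88 to 6.02 and was above background in none. Myh3, the myosin heavy chain of embryonic muscle, was above background in none of the 6 extracts on either of its probes, which overlap in position (chr11:66917377-66917581 and chr11:66917550-66917609). Their signals were 5.82 to 6.00 and 5.99 to 6.16. Counted over the extracts, 3, 4 and 4 member genes were well above background in the Lats2-/- cells of litters 112, 116 and 121, and 2, 5 and 3 in the Lats2+/+ cells. Of all gene probes, 52.4%, 52.4% and 57.7% were detected in the Lats2-/- and 51.6%, 53.6% and 55.1% in the Lats2+/+ cells. Every member count included Acta1 and Actc1, so that 0 to 3 other members were detected per extract, and Myod1, Myog, Myf5, Myf6 and Myh3 were among those detected in none.

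Other genes of the muscle programme were taken from lists made by function, which were chosen with earlier results of these data known. Of 35 genes of the skeletal sarcomere and muscle metabolism, 16 were well above background in no extract and 10 in all 6, with 10 to 16 detected per extract. Of all gene probes, 38.4% were in no extract, 47.2% in all 6 and 51.6% to 57.7% per extract. The 18 expressed probes of the list had a median ratio of 0.07, beside 0.01 over all expressed probes. The 1 probe with an unadjusted p under 0.05, of Myom2, was among the expressed probes through its Lats2-/- extracts alone and is given below with no test. Des, Ckm and Mb, which encode desmin, muscle creatine kinase and myoglobin, were above background in no extract, with Des at 6.02 to 6.10. The 10 genes detected in all 6 extracts were Tpm1, Tpm2, Tpm3 and Cryab, which are also expressed outside muscle, and Eno3, Mylpf, Myl4, Tnnc2, Tnni2 and Ttn. Of these, the fast troponins Tnnc2 and Tnni2 had signals of 6.37 to 6.66 and 6.70 to 9.01, and the fast light chain Mylpf had 6.44 to 6.87. Myl4, the embryonic and atrial light chain, had 7.62 to 8.04 on its brighter probe, and 1 of the 9 probes of titin (Ttn) was detected, at 6.47 to 6.80. Eno3, the muscle enolase, shared the low value of the actins, with signals of 11.98, 12.44 and 12.01 in Lats2-/- and 11.83, 8.82 and 11.44 in Lats2+/+ cells. These genes were named after their values were seen.

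Of 18 genes of the neuromuscular junction and calcium release, 7 were above background in no extract and 5 in all 6. The shares of all gene probes, for this list and the next, were 38.4% and 47.2%. The 9 expressed probes had a median of 0.08, and 0 had an unadjusted p under 0.05. Of 12 genes of the myoblast surface and of fusion, 11 had a probe, 6 were above background in all 6 extracts and 3 in none. Mymk, the fusion factor myomaker, was among the former, at 6.74 to 6.87, and Cdh15, the cadherin of satellite cells, among the latter. The median of their 17 expressed probes was 0.09, and 2 probes had an unadjusted p under 0.05, both downwards. These were the probes of Itga7, the laminin-binding integrin chain of muscle, with ratios of -0.45, -2.07 and -1.98 on one (limma adjusted p = 0.711 for both) and -0.41, -1.86 and -1.78 on the other.

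Of 18 regulators, partners and inhibitors of the myogenic factors, 13 were well above background in all 6 extracts and 3 in none (47.2% and 38.4% of all gene probes). The 29 expressed probes of this list had a median ratio of -0.20. Pax3, a regulator of muscle precursors and of other embryonic lineages, was well above background in all 6 extracts at 8.22 to 9.70 on its brighter probe. Eya1, a transcriptional coactivator of muscle precursors, had the smallest p of the list genes tested. Its brighter probe had signals of 10.24, 8.78 and 10.87 in Lats2-/- and 8.88, 7.35 and 9.28 in Lats2+/+ cells, so that it was higher in Lats2-/- cells in 3 of 3 litters although the genotypes overlapped across litters. The ratios were 1.37, 1.43 and 1.59, a mean of 1.46 ± 0.11 (SD, n = 3; limma adjusted p = 0.634), which failed the correction. Its other probe had 0.68 and 0.92 in litters 112 and 121 and a bound of at least 1.36-fold higher for Lats2-/- in litter 116, and these were the 2 probes of the list with an unadjusted p under 0.05, both upwards.

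Some muscle genes were high or detected in 1 or 2 extracts. Pax7, the marker of satellite cells, reached the flag in a single extract, Lats2+/+ of litter 116, at 9.26 against 6.00 to 6.26 in the other 5, which was at least 8.0-fold higher than its Lats2-/- littermate. Over all 3 litters the bound was at least 1.95-fold in favour of Lats2+/+, and it rested on that extract. Myod1 and Myf5 were not well above background in the same extract, at 6.16 and 5.99. Both probes of the slow troponin Tnni1 reached the flag there alone, at 6.60 and 6.57, and Tnni2 was at 9.01 there against 6.70 to 7.98 elsewhere. The epithelial keratins Krt8 and Krt18 also reached the flag in that extract alone, and their part in these values was not tested. Myh7, the slow myosin heavy chain of skeletal muscle and heart, was detected in both extracts of litter 121 only, at 9.90 in Lats2-/- and 6.84 in Lats2+/+ cells against 6.03 to 6.22 elsewhere. Its ratio in that litter was 3.07, and 2.68 on its other probe. The cardiac troponin Tnnt2 was at 11.08 in the same Lats2-/- extract and at 6.16 to 7.76 elsewhere. Some markers of other cell types were high there too. Nes, the neural intermediate filament nestin, was at 12.52 against 7.50 to 8.42. The smooth muscle calponin Cnn1 was at 13.34 against 6.31 to 11.71. Cdh1 and a dim Kdr probe (6.61) were well above background in that extract alone. The other Kdr probe (5.94), Pecam1, Cdh5, Tie1 and Emcn were not well above background there. That extract had 2 of 7 endothelial, 3 of 7 epithelial and 4 of 8 neural markers detected, counts that other extracts reached too. The part of these other cell types in the Myh7 and Tnnt2 values was not tested. Neb, which encodes the thin filament protein nebulin, reached the flag in 1 extract, Lats2+/+ of litter 121, at 7.59 on its brightest probe. Myom2, an M-band protein, was well above background in 7 of 8 hybridisations of Lats2-/- and 0 of Lats2+/+ extracts, which gave a bound of at least 1.29-fold in favour of Lats2-/-. Pax7, Myh7, Tnnt2, Tnni1, Tnni2, Nes, Cnn1, Cdh1, Kdr, Krt8, Krt18 and Neb were named after their values were seen.

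**Figure D4:**
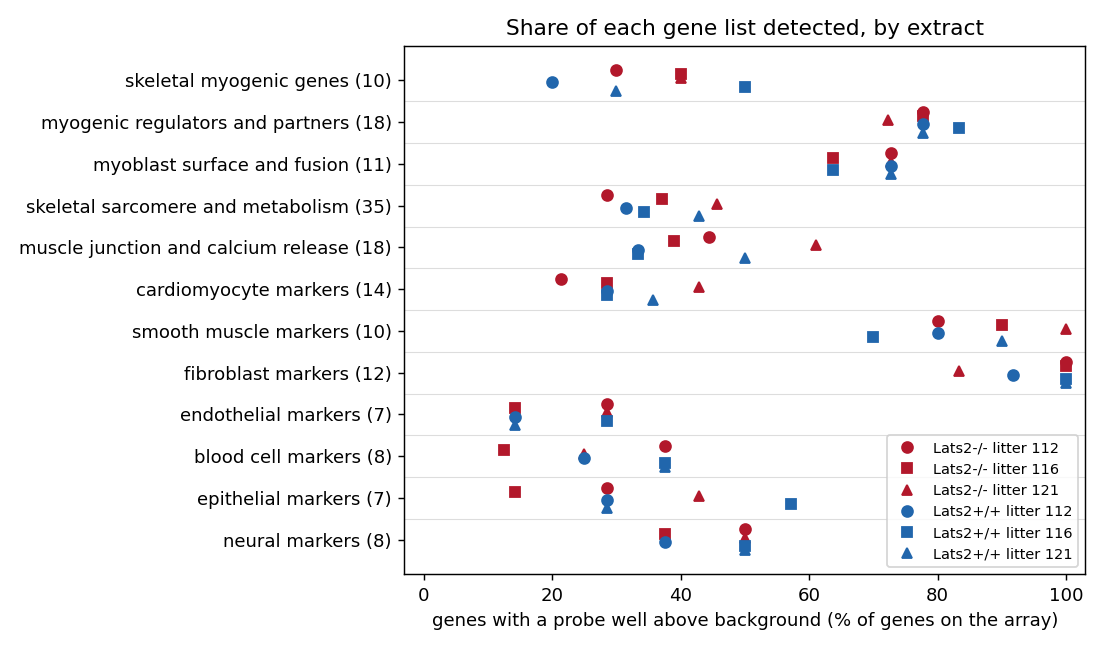
Share of the genes of each list with a probe well above background (x axis, percent of the genes on the array, whose number follows the list's name) in each of the 6 extracts, coloured by genotype and shaped by litter. Of the 10 skeletal myogenic genes 2 to 5 were detected per extract, beside 7 to 10 of 10 smooth muscle and 10 to 12 of 12 fibroblast markers. Of all gene probes, 51.6% to 57.7% were detected per extract.

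Lists of other cell types gave the level against which these counts can be read. Of all gene probes, 38.4% were well above background in no extract, 47.2% in all 6 and 51.6% to 57.7% per extract. Of 7 endothelial markers, 1 to 2 were well above background per extract and 4 in none, and of 8 blood cell markers 1 to 3 per extract and 4 in none, with Pecam1 and Ptprc among those in none. Of 14 cardiomyocyte markers, 8 were in no extract and 2 in all 6, with 3 to 6 per extract, and 2 probes of Nppb, a natriuretic peptide, had an unadjusted p under 0.05 (means of -0.97 and -0.86, adjusted p = 0.711 for each by limma). Epithelial markers were detected at 1 to 4 of 7 and neural markers at 3 to 4 of 8 per extract. Among the smooth muscle and fibroblast markers, a dim Acta2 probe and Postn, a matrix protein, had an unadjusted p under 0.05 (limma adjusted p = 0.711 for both). The Acta2 probe had ratios of 0.16 and 0.97 in litters 112 and 121 and a bound of at least 1.85-fold higher for Lats2-/- in litter 116, and Postn had ratios of 0.80, 2.55 and 0.67.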

How the data were processed

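The authors labelled total RNA of both genotypes of a litter with Cy3 and Cy5, hybridised it to Agilent whole mouse genome arrays and extracted the scans with Feature Extraction (10.7.3.1 per the file headers, 10.5.1.1 in the submitters' processing notes). The deposited scanner files hold, as intensity on a linear scale with no normalization, mean signals and median local backgrounds, together with processed signals, detection flags and the log10 ratio of red over green. The deposited value table holds log10 ratios, which matched the scanner ratios with the sign turned to Lats2-/- over Lats2+/+ within 0.005. Probe coordinates are those of the files, on mm8, and the exon or UTR of a probe was not analysed here.

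Mean signals were background corrected with normexp (offset 50) by limma 3.58.1 (R 4.3.3). Spots of controls and 860 outlier spots were left out, and 0 gene spots were saturated. Ratios were normalized by loess within arrays and turned to Lats2-/- over Lats2+/+. Repeat spots, and then the arrays of a litter, which hold the same clones, were averaged, so that n is 3 litters. Signals per extract followed loess and Aquantile. Expressed probes (22642 of 41174) had to be well above background in 2 or more extracts of a genotype. limma's moderated test of the litter ratios against 0 was two-sided, with Benjamini-Hochberg adjustment over these probes at 0.05. The genotypes are paired by litter and array, and deviations of the same-litter extracts from the genotype means correlated at 0.46, 0.30 and 0.47. Where a probe was flagged in 1 extract and on no array of the other, the difference is a bound against the higher of its own signal and the lowest signal well above background. Members were matched by the name in the files. Other list genes were matched through RefSeq symbols, which were found for 24375 probes. Genes named besides the members and Lats2 were list genes with an unadjusted p under 0.05, at most 12, the 5 genes with signals closest to Acta1 and Actc1, markers needed to say which of a list were detected, and those stated as chosen later. The members and lists were chosen with earlier results of these data known. Precision is limited by how many arrays and litters there were, and nothing in the labels says how many cultures stand behind a clone.

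The fit was tested on simulated data in which 200 of 22642 probes of the Lats2-/- over Lats2+/+ comparison were changed: an adjusted p under 0.05 was reached by 8%, 48%, 62% and 70% of probes changed by 1, 2, 3 and 4 on the log2 scale, and p under 0.05 by 88%, 96%, 96% and 98%. These shares are over all changed probes. They do not give the power for Acta1 and Actc1, whose litter ratios had SDs of 2.09 and 1.97. Alternatives were another offset, the processed signals, the value table, other filters, median centring, the methods' t-test, other blocks, other flags and leaving out each litter. One gene of the lists is not reported here.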

Additional observations from a re-analysis of the deposited data

How the results depend on the processing

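With 3 litters, limits were set by the litters and, for 7 of the 12 member probes, by signal at background. No alternative brought Acta1, Actc1 or Tnnc1 past the adjusted threshold; apart from leaving out litters, Acta1 ranged from 0.93 to 1.17 (adjusted p 0.458 to 0.9997, limma or the methods' t-test), Actc1 from 1.02 to 1.21 (0.395 to 0.9997) and Tnnc1 from 0.01 to 0.07. Leaving out 1 litter gave -0.0606 to 1.92 for Acta1, negative without litter 116 (limma adjusted p = 0.980), 0.071 to 1.96 for Actc1, and -0.0263 to 0.15 for Tnnc1, negative without litter 121 (limma adjusted p = 0.984); the cause was not tested.

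Without the pairing by litter (no replicate block), the Acta1 and Actc1 means stayed at 1.12 and 1.17 (limma adjusted p = 0.9997 for both), and 554 in place of 1549 probes had p under 0.05. Probes at least 2-fold with p under 0.05, 189 as reported, numbered 112 with no replicate block, 305 with offset 16, 551 with processed signals, 545 with the value table, 71 with the methods' t-test, 399 and 441 with a random block of litter or of slide, and 260 to 373 without 1 litter. The same random blocks, in which each repeat array counts as an observation, called 203 and 717 probes at an adjusted p under 0.05. Of the members, the block of litter moved Actc1 to an unadjusted p under 0.05 (mean 1.17, limma adjusted p = 0.395). Every other setting called 0.

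Detected members in the Lats2-/- extract of litter 112 (3) became 6 with the looser flag and 6 when any array sufficed, those in Lats2+/+ of litter 112 (2) became 6 and 4, and those in Lats2+/+ of litter 121 (3) became 6 and 5. The share of all gene probes in these 3 extracts went with them, from 51.6% to 55.1% as reported to 64.8% to 70.1% with the looser flag and 55.8% to 63.8% when any array sufficed. The median of the regulators and partners was -0.29 with processed signals and with the value table and -0.17 to -0.0462 without 1 litter. That of the junction and calcium genes was 0.14 with offset 16, 0.17 with processed signals and with the value table, 0.0293 with no filter and 0.0655 to 0.14 without 1 litter. The members' median was 1.12 over the 3 expressed probes, 0.0107 over all 12 probes with no filter, and 0.07 to 1.92 without 1 litter, that of the smooth muscle markers 0.01 to 1.25, of the fibroblast markers -0.38 to 0.90, of the sarcomere genes 0.04 to 0.15 and of the surface and fusion genes -0.20 to 0.17.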

Other observations

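Among the other list genes whose ratios differed in direction between litters, Mcam and Id1 are given as examples, with no test. Mcam, a surface adhesion molecule of pericytes and endothelium, had ratios of -1.30 and 2.35 in litters 112 and 121 and a bound of at least 3.60-fold higher for Lats2-/- in litter 116, with a signal of 14.12 in the Lats2-/- extract of litter 121 against 6.23 to 11.77 elsewhere. Id1, an inhibitor of bHLH factors, had ratios of 1.14, -0.43 and 0.71 on its brighter probe, and 1.12, -0.43 and 0.69 on the other. Both were chosen after their values were seen.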
